A study of Mus musculus with 22 samples.

Results

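CpGs lying between genes, but within reach of them, were followed through mammary tumor progression. The set holds the autosomal CpG positions measured in all 22 samples that lie outside every RefSeq gene, more than 2 kb from every transcription start site (TSS) and at most 50 kb from the nearest gene. Of 1140639 positions covered in all samples, 117066 (10.3%) met this rule; they fall on 103110 distinct CpGs, since a CpG can be read on both strands. Runs of 3 or more such positions, each at most 100 bp from the next, made up a region. In all, 15697 of 84753 regions of the genome (18.5%) were of this kind. The regions held 87813 of the positions (75.01%).

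Genomic DNA came from mammary glands or tumors of female mice, 1 library per mouse, and was profiled by ERRBS (enhanced reduced representation bisulfite sequencing), which reads methylation base by base around restriction sites. PyMT mice were F1 females heterozygous for the MMTV-PyMT transgene, in which the mouse mammary tumor virus promoter drives the polyoma middle T antigen in mammary epithelium; they were bred from transgenic males and FVB females. They were taken with hyperplasia at week 6 (n = 2), adenoma or mammary intraepithelial neoplasia (MIN) at week 8 (n = 3), early carcinoma at week 10 (n = 3) and late carcinoma at week 12 (n = 2). Age-matched FVB females without the transgene gave 3 samples at each week, and 2 PyMT samples were removed as outliers before deposit. The tissue was whole gland or tumor, so a shift in cell makeup and a change of methylation within a cell cannot be told apart.

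DNA methylation at CpGs of the mammalian genome is high outside CpG islands and low at active promoters and enhancers. Intergenic sequence in the neighborhood of genes holds many distal enhancers, whose CpGs often sit at intermediate levels that differ between cell types. In many tumors, CpG-poor intergenic sequence loses methylation while CpG-dense elements gain it.

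The sequences below show what such regions look like: the 3 gains and the 3 losses with the largest difference between PyMT and FVB mice among called regions of 5 or more positions whose groups did not overlap, 1 per nearest gene, on the plus strand of GRCm38/mm10 (RefSeq GRCm38.p6), named by the nearest gene. Capitals mark the CpGs measured in all samples, and 10 bases were added on each side of a region. The 3 that gained methylation in PyMT mice were:
Snhg20 chr11:117091934-117092127: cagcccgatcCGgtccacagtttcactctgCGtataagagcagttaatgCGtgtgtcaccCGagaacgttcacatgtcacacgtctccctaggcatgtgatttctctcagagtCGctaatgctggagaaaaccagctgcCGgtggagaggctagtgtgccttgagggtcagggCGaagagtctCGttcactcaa
Gm25514 chr2:116972311-116972605: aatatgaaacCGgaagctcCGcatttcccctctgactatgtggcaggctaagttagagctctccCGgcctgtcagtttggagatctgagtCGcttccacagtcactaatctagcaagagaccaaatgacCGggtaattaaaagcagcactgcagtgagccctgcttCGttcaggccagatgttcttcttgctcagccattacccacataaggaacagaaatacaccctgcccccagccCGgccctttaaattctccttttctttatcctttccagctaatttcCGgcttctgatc
Tfap2a chr13:40710210-40710356: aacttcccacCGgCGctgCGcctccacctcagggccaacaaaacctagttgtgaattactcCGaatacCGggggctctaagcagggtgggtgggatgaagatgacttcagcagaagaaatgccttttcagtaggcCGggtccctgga
The 3 that lost it were:
Lrrfip2 chr9:111111179-111111252: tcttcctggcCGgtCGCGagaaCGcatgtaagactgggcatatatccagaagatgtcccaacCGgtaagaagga
Acot6 chr12:84096424-84096646: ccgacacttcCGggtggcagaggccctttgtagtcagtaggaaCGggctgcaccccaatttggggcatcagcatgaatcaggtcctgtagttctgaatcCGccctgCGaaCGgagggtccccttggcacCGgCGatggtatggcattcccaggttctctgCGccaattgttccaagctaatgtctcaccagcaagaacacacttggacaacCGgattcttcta
Morn3 chr5:123052215-123052280: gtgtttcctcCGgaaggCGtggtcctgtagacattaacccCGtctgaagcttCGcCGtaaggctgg
The first lies 12989 bp downstream of the lncRNA gene Snhg20, the second 4139 bp upstream of the pseudogene Gm25514, and the third 3456 bp downstream of Tfap2a, which encodes the transcription factor AP-2 alpha. The losses lie 6304 bp upstream of Lrrfip2, 4018 bp upstream of the acyl-CoA thioesterase gene Acot6 and 5189 bp upstream of Morn3. The difference ran along the whole of each window. In the Snhg20 window all 8 measured CpGs were higher in PyMT mice, by 47.2 to 57.1 percentage points, and in the Acot6 window all 9 were lower, by 47.8 to 60.5 points. At 40 of the 41 measured CpGs in these 6 windows every PyMT mouse lay on one side of every FVB mouse. The exception was the last CpG of the Lrrfip2 window, where the lowest FVB mouse and the highest PyMT mouse were both at 36.4%. The windows were chosen for large, separated differences in the same mice, so the separation of their CpGs is no separate evidence.

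**Figure D1:**
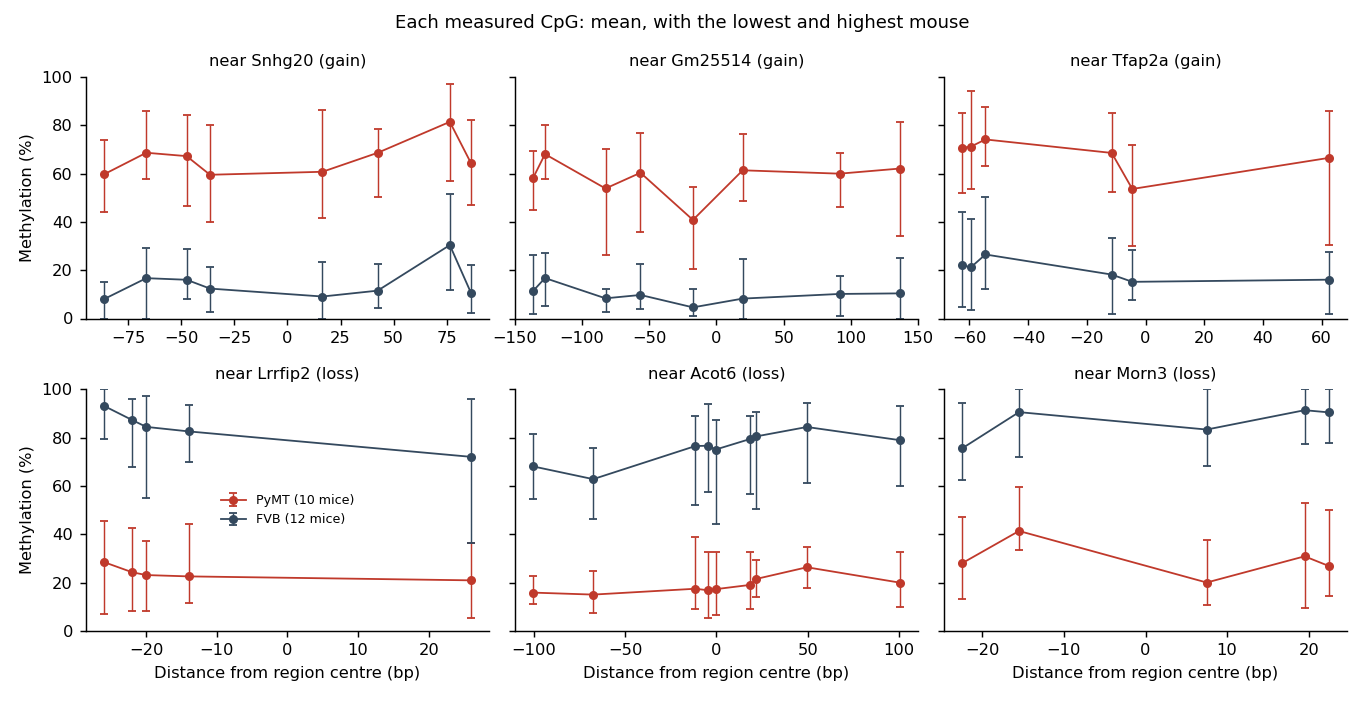
Methylation (%) of each measured CpG in the 6 windows against its distance from the region centre in bp; points are means of 10 PyMT (red) and 12 FVB (dark) mice and bars run from the lowest to the highest mouse. PyMT means lie at 40.8% to 81.5% against 4.61% to 30.4% in FVB in the 3 gains, and at 14.996% to 41.3% against 62.8% to 93.2% in the 3 losses.

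Libraries held 1314077 to 1435757 positions of at least 10 reads, with a mean coverage of 60.2 to 79.2 reads. A typical region was 82 bp long, held 4 positions, lay 9790 bp from the nearest gene and was 75.7% methylated in FVB mice (medians). In FVB mice 2073 regions were under 20% methylated, 6680 between 20% and 80%, and 6944 at 80% or more. The nearest gene was protein coding for 6619 regions, a lncRNA for 5393 and a pseudogene for 3017, and 1041 regions (6.63%) had the base composition of a CpG island. The samples farthest from the mean of all PyMT or all FVB mice were FVB week 8 replicate 2, with 271 regions at least 20 points away, and PyMT week 6 replicate 1, with 217; the other samples had 14 to 179.

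Methylation of the intergenic CpGs was lower in PyMT than in FVB mice at every stage, and the gap widened with age. The mean over all 117066 positions was 55.9% and 55.7% in the PyMT mice of week 6, against 59.5%, 59.3% and 59.8% in the FVB mice. At week 8 it was 56.7%, 54.7% and 54.5% in PyMT and 59.3%, 60.03% and 59.7% in FVB. No PyMT mouse reached the lowest FVB mouse of its week, and FVB week means stayed between 59.5% and 60.3%. At week 10 it was 54.7%, 55.7% and 55.0% in PyMT and 60.2%, 60.2% and 60.3% in FVB. At week 12 it was 54.2% and 54.4% in PyMT and 60.1%, 60.3% and 60.4% in FVB. The difference of means was thus -3.77 points in hyperplasia, -4.36 in adenoma/MIN, -5.08 in early carcinoma and -5.97 in late carcinoma.

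Other annotation classes moved by other amounts in the same mice. Promoter positions differed by -0.219 points at week 6 and 0.173 at week 12, and exons by -1.84 to -2.07 points with no widening. Introns went from -2.96 to -4.35 points. Gene deserts, intergenic positions more than 50 kb from a gene, went from -5.005 to -10.04 points. Intergenic CpGs near genes therefore lay between introns and deserts in these samples, a description for which no test between classes was run.

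**Figure D2:**
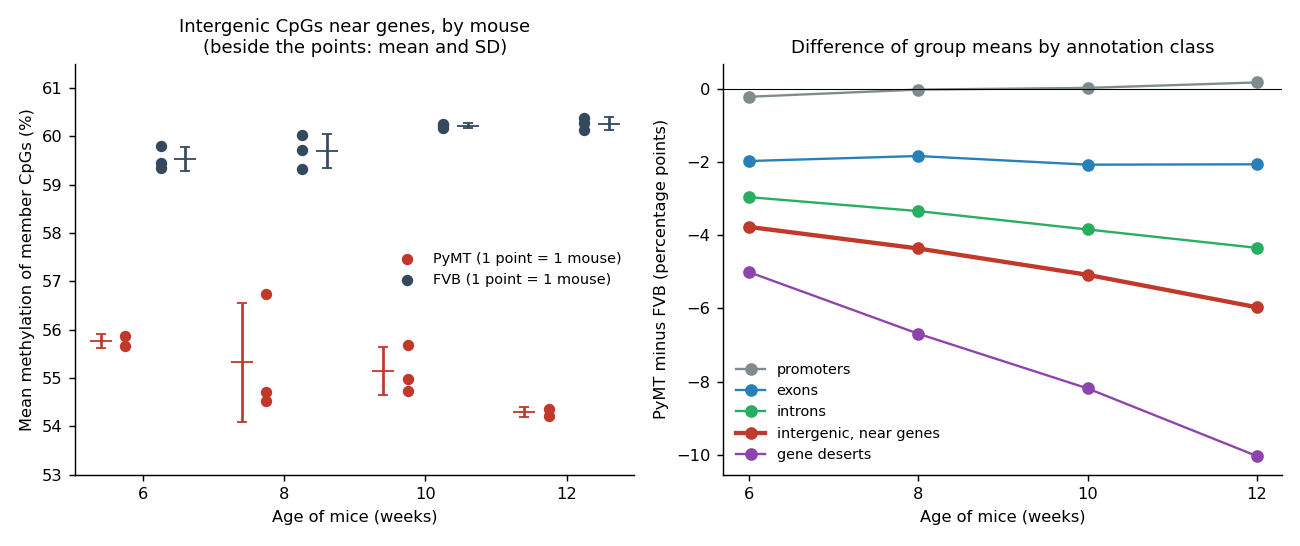
Left, mean methylation (%) of the intergenic positions in each mouse by age in weeks, with the mean and SD of each group beside its points; the axis starts at 53%. Right, PyMT minus FVB difference of group means (percentage points) for 5 annotation classes: intergenic positions near genes went from -3.77 to -5.97 points, deserts to -10.04, and promoters from -0.219 to 0.173.

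Hypomethylated cytosines outnumbered hypermethylated ones at each stage. A differentially methylated cytosine (DMC) passed q = 0.01 in a likelihood-ratio test that takes reads and not mice as units, and its pooled methylation differed by 10 points or more. In hyperplasia 5354 positions (4.57%) were hyper-DMCs and 17933 (15.3%) hypo-DMCs, against 2.62% and 6.01% of all positions of the genome. In adenoma/MIN the counts were 6140 (5.24%) and 21255 (18.2%), against 3.2% and 7.1%. Both shares were above the genome-wide share, and the hypo-DMC share by more. Promoters held 63.8% of all positions and had 0.984% hyper-DMCs and 1.61% hypo-DMCs in hyperplasia. Introns had 6.70% and 15.1% at that stage, and gene deserts 2.93% and 16.8%. Early carcinoma had 8213 hyper-DMCs (7.02%) and 25920 hypo-DMCs (22.1%), against 4.39% and 8.42%. Late carcinoma had 7498 (6.40%) and 27089 (23.1%), against 4.44% and 8.53%. Hyper-DMCs made up 21.7% to 24.1% of DMCs over the 4 weeks, with no steady trend. Of 39674 positions that were hypo-DMCs at some week, 9701 were at all 4; of 13834 hyper-DMCs, 1950 were. Only 363 positions were hyper-DMCs at one week and hypo-DMCs at another. Counts across weeks were not made for all positions of the genome, so they have no background here.

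Region calls, with the mouse as the unit, showed the same balance. A region was called at an adjusted p under 0.05 (logistic model with limma-moderated dispersion, Benjamini-Hochberg over all 84753 regions) and a difference of at least 10 points. Over all weeks, 1074 of 15697 regions (6.84%) gained and 3863 (24.6%) lost methylation in PyMT mice, against 6.42% and 16.1% of all regions of the genome. The share of gains was close to the background and that of losses was above it. Without FVB week 8 replicate 2 the counts were 1048 and 3822, and without PyMT week 6 replicate 1 they were 1061 and 3858. All 10 PyMT mice lay above all 12 FVB mice in 416 regions (2.65%, against 3.52% of all regions) and below them in 2021 (12.9%, against 9.04%). Of the gains 381 (35.5%) and of the losses 1875 (48.5%) were separated in this way. The same shares were not counted among called regions of the whole genome, so they have no background here. Calls and separation also rest on the same mice.

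By week, 529 regions (3.37%) gained and 2283 (14.5%) lost methylation in hyperplasia, against 3.3% and 10.1% of all regions. In adenoma/MIN 769 (4.90%) gained and 3053 (19.4%) lost, against 4.76% and 12.9%. In early carcinoma 1128 (7.19%) gained and 3855 (24.6%) lost, against 6.66% and 16.3%. In late carcinoma 1003 (6.39%) gained and 4340 (27.6%) lost, against 6.56% and 17.7%. Losses exceeded the share over all regions at each week and gains stayed near theirs. Intron regions had 5.53% gains and 14.1% losses in hyperplasia and 9.95% and 23.8% in late carcinoma. Gene deserts had 1.64% and 13.6%, then 3.31% and 35.2%. Week 6 and week 12 have 2 PyMT mice each, and without PyMT week 6 replicate 1 the week 6 counts were 149 gains and 1130 losses. Week 6 had 319 gains without FVB replicate 3, and week 12 had 625 gains without PyMT replicate 1. Most early calls were called again later: 428 of the 529 gains and 1941 of the 2283 losses of week 6 were also called at week 12. In all 340 regions gained and 1628 lost at each of the 4 weeks, 135 gained and 824 lost only at week 12, and 2 gained at one week and lost at another. Such counts were not made over all regions of the genome, so no background stands beside them.

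**Figure D3:**
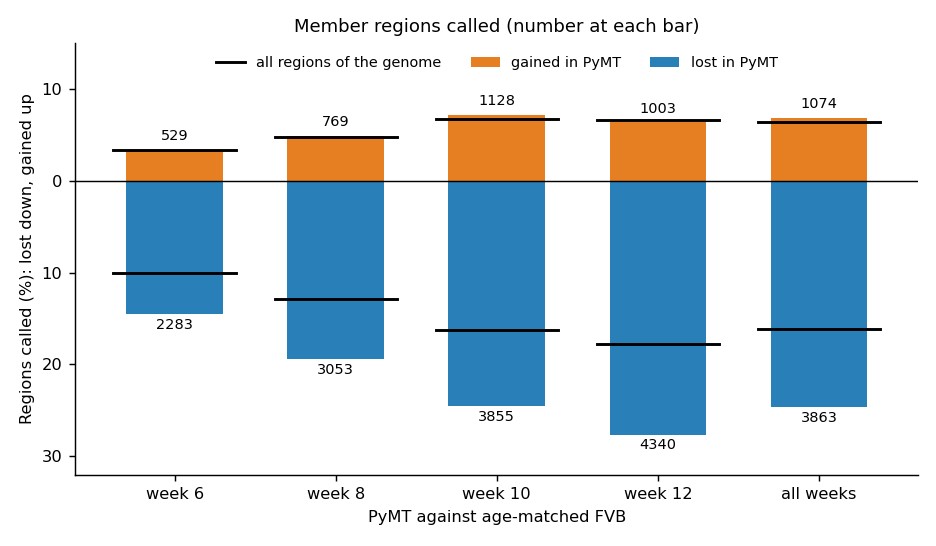
Percent of the 15697 member regions called lost (down, blue) or gained (up, orange) in PyMT against age-matched FVB mice at each week and over all weeks, with the number of regions at each bar; black lines give the percent among all 84753 regions. Losses rise from 14.5% to 27.6% and stay beyond the black line, while gains lie close to it.

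The 1074 gains went from a median of 48.0% in FVB to 68.0% in PyMT mice, and the 3863 losses from 71.5% to 48.9%. Regions at 20% to 80% in FVB supplied 951 of the gains and 2461 of the losses; those at 80% or more supplied 11 and 1338, where the level leaves little room to gain, and those under 20% supplied 112 and 64. Among the regions that lost methylation over all weeks the median difference went from -14.6 points at week 6 to -21.6 at week 12, and among the gains from 13.7 to 19.97. Part of that widening came from FVB mice, in which the losing regions averaged 64.5% at week 6 and 67.3% at week 12, while PyMT mice went from 47.7% to 43.2%. These regions were called with the same samples, so the weekly medians describe the calls and are no separate evidence.

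Loss was graded by CpG density. Positions with no other CpG within 35 bp differed by -6.54 points at week 6 and -11.2 at week 12. Positions with 6 or more neighbors differed by 0.0541 and 0.978 points. The mean over weeks was -8.85 points for isolated CpGs (n = 23294 positions), -5.53 with 1 to 2 neighbors, -2.27 with 3 to 5 and 0.521 with 6 or more (n = 11127). At isolated CpGs all PyMT mice lay between 57.1% and 61.9% and all FVB mice between 66.96% and 68.6%. At the dense CpGs the groups overlapped, at 17.6% to 18.9% and 17.5% to 17.8%. Isolated CpGs flanked by A or T on both sides, a context known for methylation loss in dividing cells, were few (646 positions, since the assay cuts at a CpG flanked by C and G) and differed by -12.7 points on average, against -8.76 for the 21124 flanked by C or G on both sides.

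The same gradient appeared in the region calls. With up to 5 CpGs in a window of about 0.5 kb, 491 of 1141 regions (43.0%) lost methylation and 60 gained it. With 21 or more CpGs, 90 of 1781 (5.05%) lost and 58 gained. Regions with island-like composition (at least 50% G and C, observed to expected CpG ratio of at least 0.6) had 32 gains and 38 losses among 1041. These windows were 5.66% methylated in FVB mice at the median, against 76.6% for the other regions.

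The mean difference over positions also varied with distance from genes and with repeat content. Positions within 5 kb of a gene differed by -3.71 points on average and those 25 to 50 kb away by -6.24. The farther positions were also more methylated in FVB mice, at 70.1% against 51.7%. Over the 4 weeks the outer bin went from -4.64 to -8.04 points and the inner bin from -3.10 to -4.37. Positions in soft-masked repeats went from -4.68 to -9.40 points, while those outside went from -3.53 to -5.04. Within repeats hyper-DMCs were 1.47% of positions in late carcinoma, against 7.74% outside. Positions in repeats were also more methylated in FVB mice, at 82.0% against 53.9%, which leaves less room to gain. Region calls did not follow the position means. Of 3594 regions at least 50% soft-masked 21.6% lost methylation, against 25.5% of 8902 regions with no masked base. Whether a region lay upstream or downstream of its nearest gene made little difference: 25.2% of 6923 upstream and 24.2% of 8774 downstream regions lost methylation.

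**Figure D4:**
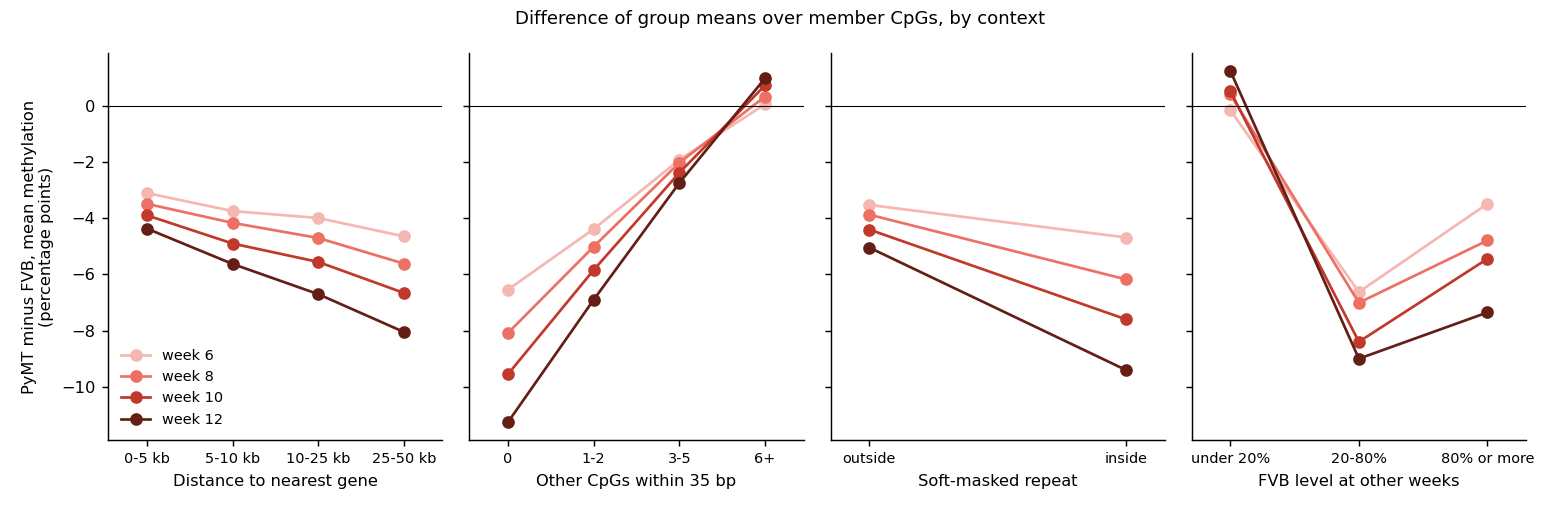
PyMT minus FVB difference of group means (percentage points) over the intergenic positions at weeks 6, 8, 10 and 12 (light to dark), split by distance to the nearest gene, number of other CpGs within 35 bp, repeat content and the FVB level taken from the other weeks. Among the bins shown, isolated CpGs have the largest difference (-11.2 points at week 12), and CpGs with 6 or more neighbors differ by 0.978 points.

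Neighboring regions moved together most at short spacing. For pairs up to 500 bp apart the correlation of their PyMT minus FVB differences was 0.617 (957 pairs, a description across regions that share mice). After a lost region the next was lost in 50.6% of pairs and gained in 0%, against 16.4% lost after any region. Beyond that and up to 2000 bp the correlation was 0.111, and in the next bin, up to 10000 bp, it was 0.0324. After a gained region the next one gained in 52.8% of pairs at the shortest spacing, against 5.85% after any region. The shares were 19.8% against 8.42% up to 2000 bp and 12.4% against 7.44% up to 10000 bp.

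Promoters of the nearest genes were mostly low in FVB mice and differed little, whichever way the intergenic region moved. For 1105 lost regions whose nearest gene was protein coding with a measured promoter, the promoter differed by -0.00739 points at the median, and for 410 gained regions by 0.00516 points. In FVB mice these promoters were at 1.40% next to lost and 0.769% next to gained regions (medians), which leaves little room to fall. Promoters lower by at least 5 points lay next to 5.43% of lost regions, 4.88% of gained regions and 4.202% of regions not called. Those higher by at least 5 points lay next to 2.90%, 3.66% and 2.32%. Gata3 was among those with a lower promoter, at 2.67% in PyMT and 10.4% in FVB mice. The promoter of Tgfb1 was at 0.149% and 0.119%, and that of Acot6 at 0.273% and 0.352%. The Morn3 promoter, next to a lost region, was at 69.5% in PyMT and 60.1% in FVB mice, with overlapping groups.

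The largest gains started from low to intermediate levels. They were chosen by size among called regions of 5 or more positions with separated groups, none of them on chromosome 18. At the Snhg20 region PyMT mice ranged from 51.2% to 78.2% (median 65.1%) and FVB mice from 7.41% to 20.5% (median 13.1%). The difference over weeks was 51.9 points (log odds 2.49 ± 0.134 SE, adjusted p = 7.13e-12, logistic model). The gap between the highest FVB and the lowest PyMT mouse exceeded the range within either group. At the Gm25514 region PyMT mice lay at 38.1% to 67.8% (median 62.1%) and FVB mice at 6.00% to 17.2% (median 8.98%), a difference of 46.6 points (adjusted p = 1.54e-11). It was 33.4 points at week 6 and 56.5 at week 10. Near Tfap2a PyMT mice ranged from 56.2% to 78.5% and FVB mice from 10.4% to 35.1%, a difference of 45.7 points (adjusted p = 3.26e-09). The Tfap2a promoter itself stayed unmethylated, at 0.676% in PyMT and 1.93% in FVB mice.

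A region 2560 bp downstream of Tgfb1, the gene of the secreted cytokine TGF-beta 1, ranged from 62.4% to 76.8% in PyMT and from 18.6% to 36.6% in FVB mice. It gained 41.8 points (adjusted p = 2.83e-11), and the gain was present at week 6, where the PyMT mice were at 76.8% and 72.7% and the FVB mice at 35.5%, 34.0% and 18.6%. Near Csrp1, which encodes a LIM domain protein of smooth muscle, means were 64.7% ± 5.07 (SD, n = 10) and 28.5% ± 5.97 (n = 12). The other 3 of the 8 gains lay near the pseudogene Gm12623 and the lncRNAs Gm30298 and 2010203P06Rik and differed by 45.7, 39.1 and 37.1 points. The last of these lies 7659 bp from Tgfbi, a TGF-beta-induced matrix protein.

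The 8 losses chosen in the same way started from high methylation. Among all member regions, those of fewer positions, with overlapping groups or on chromosome 18 included, the lowest difference was -65.4 points. At the Lrrfip2 region FVB mice ranged from 68.6% to 93.4% (median 86.2%) and PyMT mice from 10.4% to 40.4% (median 22.1%). The difference was -60.4 points (adjusted p = 1.36e-10, logistic model). No mouse of either group lay between 40.4% and 68.6%. The Acot6 region fell by 57.6 points, from 76.1% ± 8.41 (SD, n = 12) in FVB to 18.6% ± 4.40 (n = 10) in PyMT mice (adjusted p = 8.77e-12). The Morn3 region had FVB mice at 79.6% to 98.9% and PyMT mice at 17.5% to 48.8%, a difference of -57.1 points (adjusted p = 3.92e-11).

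Near Pnpla8, which encodes a phospholipase, PyMT mice were at 45.7% and 44.2% at week 6 and at 19.4% and 27.01% at week 12, while FVB mice stayed at 79.0% to 92.4%. Its PyMT change from weeks 6 and 8 to weeks 10 and 12 was -15.0 points and missed the threshold (adjusted p = 0.0904, logistic model). Downstream of Acvrl1, the gene of the endothelial receptor ALK1 of the TGF-beta family, means were 23.3% ± 6.28 in PyMT (SD, n = 10) and 78.1% ± 4.73 in FVB mice (n = 12). The regions near the lncRNAs Gm12068, 5031434O11Rik and Gm31111 differed by -55.4, -54.8 and -54.2 points. Each of the 16 regions kept its call and its direction under 10 alternatives, which include leaving out each replicate number of either group. They were picked for large, separated differences in the same mice, so this is no separate evidence.

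**Figure D5:**
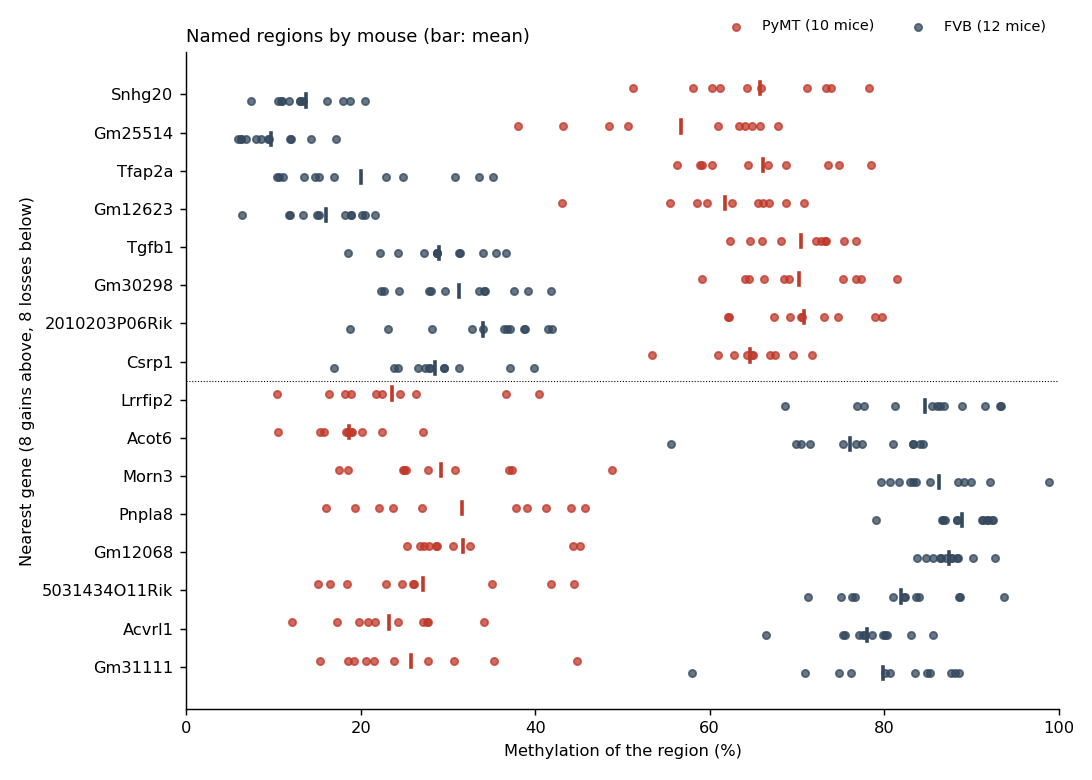
Methylation (%) in each mouse of the 8 gains (upper rows) and 8 losses (lower rows) with the largest differences among called, separated regions of 5 or more positions (1 per gene), by nearest gene; each point is 1 mouse (red PyMT, n = 10; dark FVB, n = 12) and bars mark the group means. The groups do not overlap in any of the 16, which is how the regions were chosen, and chromosome 18 was left out of the choice.

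Among the pathway lists, regions nearest to Wnt genes lost methylation more often than they gained it. Of 49 Wnt pathway genes 18 were nearest to 34 regions, of which 15 lost and 1 gained methylation (median difference -6.36 points), beside 24.6% lost and a median of -3.14 points over all member regions. The inhibitor Wif1 had the largest difference, 21097 bp downstream of the gene: 20.9% to 44.1% in PyMT and 82.1% to 92.2% in FVB mice, -53.9 points (adjusted p = 4.51e-12, logistic model). A region 16574 bp upstream of the Frizzled receptor gene Fzd1 ranged from 24.2% to 67.4% and from 79.9% to 92.5%, -46.3 points (adjusted p = 6.11e-11). All 5 regions nearest to Fzd9, another Frizzled receptor, lost methylation, by 11.6 to 31.2 points. Regions near the ligand genes Wnt7a (-36.1 points) and Wnt7b (-42.0 and -16.6 points), the R-spondin gene Rspo4 (-42.7 points) and the secreted inhibitor gene Dkk3 (-16.2 points) also lost methylation. The 1 gain lay near the ligand gene Wnt1, from 7.46% to 19.6%. Promoters of Wif1 (0.630% and 0.610%) and Fzd1 (3.05% and 0.954%, PyMT and FVB) stayed low.

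The TGF-beta and BMP list had 7 gains (21.2%) and 3 losses (9.09%) in 33 regions, with a median difference of 0.00549 points, beside 6.84% gained and 24.6% lost over all member regions. Besides the Tgfb1 region above, a second one 13 bp past the end of Tgfb1 rose from 61.496% to 77.3%. Near Bmp7, a BMP ligand gene, a region 422 bp downstream went from 35.2% ± 6.56 (SD, n = 12 FVB) to 61.8% ± 7.05 (n = 10 PyMT), while regions 7674 and 9957 bp upstream fell by 10.1 and 20.7 points. Id1 and Id3, targets of BMP signaling, had gains of 13.4 and 14.9 points upstream of Id1 and of 12.0 points downstream of Id3, where another region fell by 15.8 points. Inhbb, an activin subunit gene, had a gain of 20.7 points.

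Homeobox and paired genes, which encode developmental transcription factors, were nearest to 91 regions with 15 losses (16.5%) and 1 gain (1.10%), both shares below the 24.6% and 6.84% of all member regions. Their median difference was -0.323 points. The losses included a region 796 bp downstream of Hoxd9 (36.4% ± 6.05 in FVB, n = 12, and 14.1% ± 3.06 in PyMT, n = 10, SD) and regions near Irx1, Irx2 and Irx5, which fell by 10.6 to 15.1 points, and near Gbx2, which fell by 18.99 and 20.8 points. The gain lay near Dlx3 (12.8 points). Most of the 91 homeobox and paired regions were under 20% methylated in FVB mice, which leaves little room to fall. Among all 2073 member regions under 20% in FVB mice, 64 lost and 112 gained methylation. The shares of this list were not compared with those of member regions of like FVB level. Forkhead, Sox, T-box and GATA genes were nearest to 94 regions with 10 gains (10.6%) and 9 losses (9.57%). Foxc1 had both: a region of 24 positions 4433 bp upstream rose by 35.3 points (39.6% to 67.5% in PyMT, 15.1% to 24.8% in FVB), and one of 49 positions 880 bp downstream fell by 29.1 points. Sox13 had 3 gains and 1 loss. The median of this list was 0.0803 points. Many of its 94 regions were also under 20% in FVB mice.

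Genes that mark cell types of the gland also had called regions nearby, and list members beyond the 2 largest differences of each list were picked after their values were seen. Luminal epithelial genes had 5 losses (29.4%) and 2 gains (11.8%) in 17 regions, near the 24.6% and 6.84% of all member regions. The region 30547 bp upstream of the prolactin receptor gene Prlr ranged from 22.6% to 41.9% in PyMT and from 77.3% to 94.1% in FVB mice (-52.9 points, adjusted p = 4.51e-12, logistic model). The region 5624 bp downstream of Gata3, a regulator of luminal cells, ranged from 24.7% to 41.4% and from 68.5% to 86.6% (-47.4 points, adjusted p = 1.26e-11). Regions near the tight junction genes Cldn3 and Cldn4 fell by 35.8 and 34.9 points. Pgr, the progesterone receptor gene, fell by 11.02 points, whereas a region upstream of Cdh1 (E-cadherin) rose by 31.1 points and one upstream of Esr1 (estrogen receptor) by 12.3 points. At luminal marker promoters the mean level was 4.01% to 6.15% in PyMT and 11.4% to 16.7% in FVB mice, with all PyMT mice below all FVB mice at 7 of 10 markers. The part of that shift in the intergenic losses was not tested.

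Other cell types gave mixed directions in few regions each, to be read beside the 24.6% lost and 6.84% gained over all member regions. Basal and myoepithelial genes had 1 loss, near Krt14 (33.0% to 9.49%), and 1 gain, near the oxytocin receptor gene Oxtr (37.9% to 52.2%), in 5 regions. At week 6 the Oxtr region differed by -9.76 points, and FVB mice went from 53.8% at week 6 to 26.3% at week 12. Adipocyte genes had gains near Pparg, the regulator of adipocyte differentiation (21.2 points over weeks, but -3.42 at week 6 and not called at week 8), and Car3 (18.1 points) and a loss near Acsl1 (-21.0 points), in 11 regions. Endothelial genes had 4 losses, near Pecam1 (-27.9 points), Tie1 (-17.0), Erg (-14.2) and Kdr (-13.3), and 1 gain, near Erg (10.3), in 20 regions. Leukocyte genes had 3 losses (30% of 10 regions) and 2 gains, among them regions 15299 and 13572 bp upstream of the T cell receptor subunit gene Cd3e, which fell by 43.7 and 29.3 points. Fibroblast genes (11 regions) had none called. Of 13 milk and alveolar genes only 1, Xdh, was nearest to member regions, and its 2 regions were not called. Adipocyte marker promoters averaged 37.5% to 43.2% in PyMT and 45.5% to 50.1% in FVB mice over 6 of 8 markers, and 1 of the 6 was separated. Endothelial promoters (3 of 6 markers) averaged 31.1% to 37.0% and 31.1% to 38.8%, and 1 of the 3, Pecam1, was higher in all PyMT mice. Basal promoters (3 of 6) averaged 23.7% to 29.2% and 26.0% to 36.6%, with 1 of the 3, Myh11, lower in all PyMT mice, and the 1 measured leukocyte promoter, Spi1, was at 69.2% to 84.6% and 64.2% to 72.9%. Their part in the intergenic differences was not tested.

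Few regions were called in the smaller lists, to be read beside the 24.6% lost and 6.84% gained over all member regions. Notch genes had 1 loss in 14 regions (near Notch4, -14.6 points) and ErbB genes 1 loss in 3 (near Egf, 75.1% to 59.0%). Imprinted genes were nearest to 15 regions, of which 2 (13.3%) gained and 1 (6.67%) lost methylation; most of the 15 were not at intermediate levels in FVB mice. A region 43541 bp upstream of Dlk1 fell from 55.5% ± 5.93 in FVB (SD, n = 12) to 22.6% ± 7.55 in PyMT mice (n = 10), -32.6 points (adjusted p = 4.84e-10). A region 30737 bp downstream of Slc38a4 rose from 43.4% to 71.9%, and one near Plagl1 from 70.4% to 84.1%. No member region was nearest to H19 or Meg3.

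Of the member regions, 84 overlapped a regulatory element of the RefSeq functional annotation, among them enhancers of the VISTA set, which were tested in mouse embryos, and 11 (13.1%) gained and 18 (21.4%) lost methylation, beside 6.84% and 24.6% over all member regions. Near Zfp423, a zinc finger gene of adipocyte precursors, 4 regions in 1 enhancer fell from 44.9% to 14.3%, 28.7% to 12.2%, 31.1% to 9.98% and 38.9% to 16.5%. In an enhancer near Gm25375 both regions fell, by 25.04 and 25.98 points. Gains included enhancers near Zcchc14 (35.9% to 60.1%), C130026L21Rik (44.4% to 65.7%) and Gm31078 (45.6% to 67.4%). The 84 regions were 19.8% methylated in FVB mice at the median, against 75.7% over all member regions. The elements named here were picked out after their values were seen.

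Short sequence motifs were counted in windows of about 300 bp around the region centers, on both strands, as a description. AGGTCA, the core of nuclear receptor sites, was in 21.04% of gained, 17.2% of lost and 16.5% of all member windows. The AP-1 site TGANTCA was in 11.8% of gained, 8.15% of lost and 7.60% of all windows. The E-box CAGCTG was in 24.95%, 17.3% and 17.6%. TTGGCA, bound by NFI factors, was in 13.8%, 18.5% and 14.5%. GGGCGG, the SP and KLF site, was in 13.6%, 9.89% and 14.03%. The TEAD site GGAATG was in 19.4% of gained and 16.7% of all windows. For the FOX site TGTTTAC the shares were 4.47% and 3.52%, and for the GATA site AGATAA they were 14.3% and 11.8%. The RUNX site TGTGGTT had 6.42% and 5.17%. The ETS site GGAAGT had 21.2% and 17.7%. None of these shares was tested, and motifs may overlap each other.

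Change within tumor progression was far smaller than the difference from FVB mice. Between PyMT weeks 10 and 12 and PyMT weeks 6 and 8, 86 regions (0.548%) gained and 130 (0.828%) lost methylation, against 0.571% and 0.46% of all regions. The share of gains was close to the background and that of losses was above it. Intron regions had 0.525% gains and 0.515% losses, and gene deserts 0.335% and 1.34%. The calls among the members rested on few mice. They were 11 and 3 without PyMT replicate 1, 41 and 50 without PyMT replicate 2, and 42 and 44 without PyMT week 6 replicate 1. Losses numbered 78 without FVB replicate 1 and 71 without FVB replicate 3, and limma on log2 ratios gave 5 gains and 7 losses. In FVB mice the same contrast called 0 regions (logistic model). At an unadjusted p under 0.05 it had 1346 of 15697 regions (8.57%), against 7.22% of all 84753 regions. Limma also called 0, with 995 member regions at that unadjusted p. Without FVB replicate 3 the logistic model called 2 gains and 1 loss.

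Regions called in this contrast whose change also differed from that in FVB mice (interaction) were 8 gains and 3 losses among the 15697 members. Over all 84753 regions they were 45 (0.0531%) and 23 (0.0271%), so neither share of the members was above that background. Among the members there were 0 of either without FVB replicate 1 or 2 or with limma. Without PyMT replicate 3 the member counts were 19 and 32. The 1 of the 7 named regions that kept its late minus early call in all 10 alternatives lay upstream of the lncRNA Gm31573, 15081 bp from Dicer1, the gene of the microRNA-processing nuclease. PyMT mice were at 47.9% and 36.6% at week 6, 30.4%, 30.03% and 33.9% at week 8, 16.2%, 19.04% and 12.7% at week 10 and 15.4% and 27.1% at week 12. FVB mice stayed at 49.4% to 59.4%. The PyMT change was -18.2 points (adjusted p = 0.000224) and the interaction -18.3 points (adjusted p = 0.0242, logistic model).

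Downstream of Cmip methylation rose instead. PyMT mice were at 19.8% and 24.9% at week 6, 27.02%, 22.9% and 31.1% at week 8, 43.8%, 43.3% and 39.6% at week 10 and 53.7% and 34.9% at week 12, with FVB mice at 9.63% to 19.4%. All late PyMT mice lay above all early ones. The change was 18.6 points (adjusted p = 0.00107), and it missed the threshold without PyMT replicate 1 (adjusted p = 0.173) and with limma (adjusted p = 0.0631). Near Ccdc185 early PyMT mice were at 15% to 21.2% and late ones at 5.50% to 9.01%, a change of -11.5 points (adjusted p = 0.00307), kept in 9 of 10 alternatives and missed without PyMT replicate 1 (adjusted p = 0.177). Upstream of Pparg PyMT mice went from 54.0% to 69.8% early to 72.5% to 90.3% late, while FVB mice went from 46.0% to 82.2% down to 31.6% to 52.6%; this region has 3 positions and a mean coverage of 18.3 reads. Its late minus early call (adjusted p = 0.0330, logistic model) was lost in 6 of 10 alternatives, with adjusted p up to 0.192.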

How the data were processed

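ERRBS profiles of 22 female mice were used. The authors aligned reads to mm10 with Bismark (version not given in the sources used here), removed 2 outlier samples and deposited, for each position of at least 10 reads and each strand apart, the coverage in counts of reads and the percent of reads methylated and unmethylated. Positions covered in all 22 samples were placed on RefSeq GRCm38.p6 genes, and methylated reads were taken as coverage times percent. Depth was 60.2 to 79.2 reads per position on average, and p-values for positions cover read sampling only.

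Positions were tested at each week by a logistic likelihood-ratio test on reads (DMC: q under 0.01 and 10 points). Regions were tested on reads summed per mouse with a logistic model of 8 group terms, whose dispersion was moderated with limma 3.58.1 (R 4.3.3), and Benjamini-Hochberg adjusted over all 84753 regions (call: adjusted p under 0.05 and 10 points). The difference over weeks is the mean of 4 weekly differences. Scripts used Python 3.11.15, numpy 2.4.6, pandas 2.3.3 and scipy 1.17.1, and the tests were tested on simulated data. Alternatives were limma on log2 ratios, the edgeR 4.0.16 quasi-likelihood test, other coverage, gap, length and distance limits, curated transcripts, a replicate block and leaving out replicates.

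Named first were the 8 gains and 8 losses with the largest difference among called regions of 5 or more positions with separated groups. Then came up to 4 gains and 4 losses with the largest change among regions called in both PyMT late minus early and the interaction. Both sets took at most 1 region per nearest gene and none on chromosome 18. Also named were up to 2 called regions for each of 14 gene lists, and imprinted loci of intermediate level. The members, lists and rules were chosen with earlier results of these data known. Replicate numbers did not pair the samples: deviations of PyMT and FVB samples of the same number correlated at -0.0648 to 0.0734 and those of different numbers at -0.0966 to 0.145.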

Additional observations from a re-analysis of the deposited data

Results flagged for a closer look

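By the interaction term of the logistic model, the change from weeks 6 and 8 to weeks 10 and 12 differed between PyMT and FVB mice in few regions. Relative to FVB, 10 moved up and 9 moved down. These were 0.0637% and 0.0573% of member regions, against 0.0602% and 0.0401% of all regions. The difference of the changes was 22.4 points near Gm30692, 35.4 near Pparg, 20.5 near Cmip and 18.8 near Mir692-1, and -18.3 points near Gm31573, -16.1 near Ccdc185 and -16.6 near Gm30366. Near Gm30692 the PyMT mice were at 34.6% and 42.7% at week 6, 59.5%, 45.3% and 64.6% at week 8, 74.7%, 76.2% and 73.0% at week 10 and 54.3% and 64.9% at week 12, so early and late mice overlapped. Near Mir692-1 they were at 55.1% and 55.03% at week 6, 61.7%, 70.9% and 66.5% at week 8, 75.3%, 68.1% and 64.9% at week 10 and 80.9% and 80.2% at week 12, again with overlap of early and late mice. At the Pparg region FVB mice changed by -16.7 points, and at Gm30366 by 6.56 points, so part of each difference lies in the controls. Of these 7 regions, only Gm31573 kept its PyMT late minus early call in all 10 alternatives.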

How the results depend on the processing

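No named region changed direction in its 10 alternatives, of which limma and the replicate block reuse the differences of the main model. The 36 regions named for the PyMT against FVB difference over all weeks were kept in all 10 (highest adjusted p = 0.0423). They were chosen with the same mice, so this is no separate evidence. Requiring 5 or more positions left 242 gains and 850 losses at week 6, 370 and 1100 at week 8, 546 and 1367 at week 10, 493 and 1580 at week 12, 487 and 1305 over all weeks and 51 late minus early losses, since fewer regions were tested. At 25 points, 194 gains and 966 losses over all weeks remained past the limit. The edgeR test gave 1073 gains and 3858 losses over all weeks. With limma there were 351 gains at week 6, 5 gains and 7 losses late minus early and 0 of either with the interaction. A coverage minimum of 20 reads gave 5 gains with the interaction. Leaving out samples gave 2923 to 5354 hyper-DMCs at week 6, 149 to 564 gains and 1130 to 2369 losses at week 6, 625 to 1027 gains at week 12, 11 to 96 gains and 3 to 142 losses late minus early, and 0 to 19 gains and 0 to 32 losses with the interaction; leaving out FVB week 8 replicate 2 or PyMT week 6 replicate 1 alone was chosen after seeing the data. The causes of these shifts were not tested.

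With the replicate number as a block (replicate block), 84 regions lost methylation late minus early in place of 130, while the counts over all weeks stayed at 1074 and 3863. Same-numbered samples did not deviate together. Groups of 2 or 3 mice limit the weekly and late minus early calls, and bulk tissue limits all of them.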
